A study of Homo sapiens with 6 samples.

Results

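The transcripts of OVCAR5 cells exposed to 10 μM SpiD7 for 6 h were set against those of cells given DMSO, the vehicle. The members were the samples labelled DMSO and SpiD7 6h, which are 3 of the 6 libraries of the series. OVCAR5, a line established from an ovarian cancer, was grown in high-glucose DMEM with serum and antibiotics, and SpiD7 is an isatin-derived spirocyclic dimer that modifies proteins covalently. All 6 libraries came from this line, and the labels name no genetic change. DMSO was sequenced in 2 libraries, SpiD7 for 2 h in 2 libraries, and SpiD7 for 6 h and for 12 h in 1 library each. The labels give no duration for the vehicle, and they do not say whether samples came from separate cultures.

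The values are FPKM, the fragments mapped to a transcript per kilobase of its length, scaled to the mapped reads of the library. The table pairs the 6 h library with the first DMSO library on one scale. A further DMSO column is named for the second library but holds the authors' mean of both libraries, so that it shares the first library with the other baseline. The second library was recovered from this mean by subtraction and is called recovered. With 1 library at 6 h there is no replicate check and no test, and no p-value was calculated. A gene is called higher or lower below where its 6 h level differed by more than 2-fold in the same direction from both the first DMSO library and the mean column, on the log2(FPKM + 0.1) scale. Read counts were not used here, so total depth is unknown. From the steps of the lowest values, 1 read was worth less at 6 h than in the first DMSO library, and the 6 h library was 1.11 times as deep.

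In the unfolded protein response, the sensors PERK, IRE1 and ATF6 detect misfolded protein in the endoplasmic reticulum (ER). PERK slows translation and raises the transcription factors ATF4 and CHOP, IRE1 splices XBP1, and ATF6 and XBP1 raise ER chaperones. Misfolded protein in the cytosol instead releases HSF1, which drives the heat shock genes, and electrophiles that modify cysteines release NRF2, which drives antioxidant genes.

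The 2 DMSO libraries differed from each other more than the 6 h library differed from the first of them. There were 13287 genes whose mean over the libraries was 1 FPKM or more, and 1792 of them (13.5%) stood over 2-fold apart in the vehicle pair. In the recovered library 1158 (8.72%) of these were the higher and 634 (4.77%) the lower. By comparison, 966 genes (7.27%) were more than 2-fold apart between 6 h and the first DMSO library, 834 higher (6.28%) and 132 lower (0.993%). Against the mean column 647 (4.87%) were higher and 548 (4.12%) lower. Set against the recovered one, 2063 (15.5%) were apart, 1031 higher (7.76%) and 1032 lower (7.77%). The part played by the difference between the vehicle libraries was not tested, and the levels of the leading genes are therefore given in both of them. The epithelial markers were expressed, with EPCAM at 79.6, 82.0 and 81.9 FPKM in the first DMSO library, the recovered DMSO library and at 6 h. Of the 7 ovarian lineage markers, 3 reached 1 FPKM at 6 h (PAX8, MSLN and FOLR1), WT1, MUC16 and ESR1 were then below 0.2 FPKM, and SOX17 was listed at 0 in every library. Of 8 leukocyte markers, 3 were listed at 0 in every library, among them CD3E and MS4A1, and 3 reached 1 FPKM at 6 h. These were CD68 and CD14, at 24.5 and 5.68 FPKM, and LYZ, and the summed level of the 8 was 30.5 FPKM in the first DMSO library, 44.2 in the recovered one and 31.5 at 6 h. The part of leukocyte or endothelial transcripts in the results was not tested. The summed level of the 5 endothelial markers was 0.706 FPKM at 6 h, 0.899 in the first DMSO library and 11.6 in the recovered one.

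Against both baselines, 534 genes (4.02%) were called higher at 6 h and 113 (0.850%) were called lower. With the recovered library as a further requirement, 427 (3.21%) were higher and 81 (0.610%) lower. Among the 12 genes furthest above the first DMSO library, 0 were protein-coding in RefSeq and all 12 were listed at 0 in both DMSO baselines, so that no fold is given for them. LOC102723551, for example, was listed at 0 in both DMSO libraries, at 18927 FPKM in the first 2 h library, at 93779 at 6 h and at 37188 at 12 h, and at 6 h it took 9.59% of the FPKM total. Because FPKM divides by transcript length, which the table does not give, so large a value can reflect a short transcript model, and it is not read as an abundance. Among protein-coding genes, 11752 of which were kept, 376 (3.20%) were called higher and 49 (0.417%) lower. The genes named from here on are protein-coding unless stated, a restriction made after the values were seen.

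**Figure D1:**
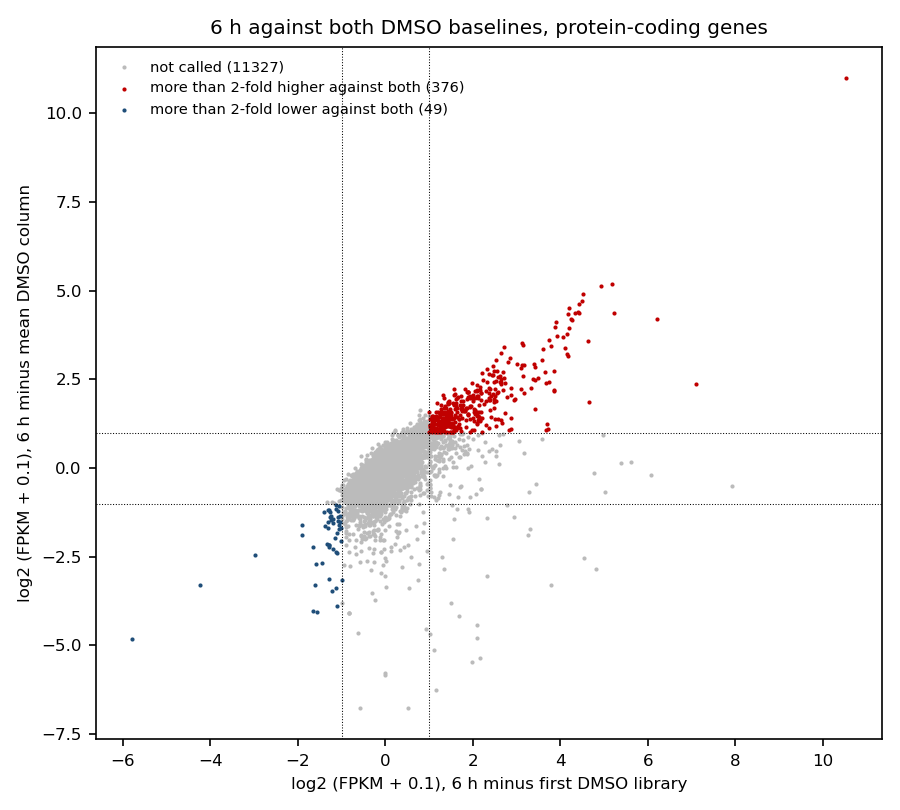
Each point is a protein-coding gene with a mean FPKM of at least 1. The x axis gives the log2(FPKM + 0.1) difference between 6 h and the first DMSO library, the y axis that between 6 h and the mean DMSO column, and dotted lines mark a 2-fold difference. The 376 genes called higher reach 10.54 on the x axis (HSPA6), the 49 called lower reach -5.79 (TIGD1), and many uncalled genes lie to the right of the dotted line at 1 but below 0 on the y axis.

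Many cytosolic heat shock genes were called higher. Of 33 cytosolic chaperones and cochaperones, 13 (39.4%) were called higher and 0 lower, against 4.02% of all genes called higher, and 29 of the 33 lay above both DMSO libraries, against 31.6% of all genes. The list's median log2 difference at 6 h was 0.71 relative to the first DMSO library, 1.05 relative to the mean column and 1.44 relative to the recovered library, beside -0.02, 0.01 and 0.08 over all genes. HSPA6, an inducible HSP70 that is nearly silent in unstressed cells (chr1:161524540-161526910 in GRCh38, forward strand), stood at 0.317 FPKM in the first DMSO library, 0.0965 in the recovered one, 77.5 and 93.6 after 2 h, 620.0 after 6 h and 1030.1 after 12 h. It exceeded the first DMSO library by 10.54 and the mean column by 10.98 on the log2 scale, the largest of any protein-coding gene that was called with at least 5 FPKM. The treated libraries did not overlap the DMSO libraries, and the level was higher at each later time.

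The stretch before the HSPA6 start site is shown because it holds the element that HSF1 binds. The heat shock element was searched on both strands as GAA, TTC and GAA, or as TTC, GAA and TTC, with 2 free bases between each (the forms overlap where units repeat), in RefSeq promoters of 300 bases (250 before the start and 50 after it, build GRCh38.p14). It was found in the promoters of 7 of 30 listed cytosolic chaperones that had an entry, against 0.608% of all 27305 genes with a promoter. Those with a match that were called higher at 6 h were HSPA6, DNAJA1 and CHORDC1, and those with a match that were not called were HSPA8, HSP90AA1, HSP90AB1 and DNAJB6. Among all genes called higher that had an entry, 5 of 335 (1.49%) held the element, against 0.449% of the genes kept. The 100 bases before the HSPA6 start (chr1:161524440-161524539, forward strand) read as follows, with the match in capitals, 74 to 62 bases before the start.
HSPA6: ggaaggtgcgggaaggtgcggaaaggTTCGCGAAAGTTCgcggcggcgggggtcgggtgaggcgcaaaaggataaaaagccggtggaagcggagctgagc

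HSPA1A, a major inducible HSP70, was at 44.3 and 33.7 FPKM in the DMSO libraries, 326 and 446 after 2 h, 959 after 6 h and 1330.1 after 12 h. HSPA1B, its near-identical neighbour, was at 34.2 and 25.2 FPKM in DMSO and at 1049 after 6 h, and HSPA1L, which lies next to HSPA1A on the opposite strand, was at 0.580 and 0.641 in DMSO and at 12.9 after 6 h. Reads shared between these 3 genes could not be separated here, so their single values are uncertain. All 3 were called higher.

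DNAJB1, an HSP40 that stimulates HSP70, was at 106 and 127 FPKM in DMSO, 519.6 and 621 after 2 h, 1414 after 6 h and 1513 after 12 h, a log2 difference at 6 h of 3.74 relative to the first DMSO library. The 6 h level was close to that at 12 h, the log2 difference between them being -0.10. BAG3, which couples HSP70 to autophagy, was at 40.5 and 28.0 FPKM in DMSO, at 292 after 6 h and at 438 after 12 h. HSPH1, an HSP110 that exchanges the nucleotide of HSP70, was at 104 and 50.6 FPKM in DMSO and at 569.5 after 6 h. HSPB8, a small heat shock protein that works with BAG3, was at 3.24, 8.16 and 24.2 FPKM, and DNAJB4, DNAJA4, HSPA4L, DNAJA1 and CHORDC1 were called with log2 differences against the first DMSO library of 2.48, 2.23, 1.58, 1.25 and 1.09. DNAJB4 was the called member with a 2 h level above its 6 h level, at 57.2 FPKM in the authors' 2 h mean and 45.6 after 6 h. At the lower end were CRYAB, HSPBP1 and BAG5, with log2 differences of 0.20, 0.03 and -0.16. Beyond the chaperones, ZFAND2A, an arsenite-inducible protein that binds the proteasome, was called higher, at 36.9 and 23.1 FPKM in DMSO and 683 after 6 h. None of 36 proteasome subunits was called (0 higher, 0 lower), against 4.02% of all genes called higher and 0.850% lower. With shares this small, 0 of 36 says little about the list. Their median log2 difference was 0.08 relative to the first DMSO library and 0.23 relative to the mean column.

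Of 24 ER chaperones and foldases, 2 (8.33%) were called higher at 6 h, against 4.02% of all genes, and the list's median log2 difference was 0.21 relative to the first DMSO library, 0.06 relative to the mean column and -0.08 relative to the recovered library. Against the first DMSO library the same median was -0.02 in the first 2 h library and 0.60 at 12 h. The called members were HSPA5 and DNAJB9. HSPA5 encodes BiP, the HSP70 of the ER (chr9:125234853-125241330, reverse strand), and stood at 197 and 337 FPKM in DMSO, 229 and 354 after 2 h, 638 after 6 h and 1378 after 12 h. Its 6 h level lay above both DMSO libraries and below the 12 h level, by -1.11 on the log2 scale. DNAJB9, a BiP cochaperone of the IRE1 branch, was at 3.17 and 8.66 FPKM in DMSO, 28.0 after 6 h and 28.7 after 12 h. HSP90B1, the ER HSP90, was at 288 and 473 FPKM in DMSO and at 527 after 6 h, short of the limit against both baselines. DNAJC3, an ER cochaperone, differed by 0.45 on the log2 scale from the first DMSO library and by 0.20 from the recovered one. The members furthest down were DNAJC10, at -0.11 from the first DMSO library on the log2 scale, then ERO1L and PDIA5, whose 6 h levels (32.4 and 29.4 FPKM) were within 0.01 of that library on the log2 scale.

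The sensors and their factors were mixed. Of 11 genes in this group, 2 (18.2%) were called higher, the PERK gene EIF2AK3 and XBP1, against 4.02% of all genes. The median log2 difference was 0.17 relative to the first DMSO library and -0.11 relative to the mean column. EIF2AK3 was at 8.17 and 12.7 FPKM in DMSO, 13.3 and 19.1 after 2 h, 27.8 after 6 h and 18.9 after 12 h. Its 6 h level was the highest of the 6 libraries. XBP1 was at 20.3 and 49.8 FPKM in DMSO, 93.8 after 6 h and 82.8 after 12 h, and these values do not separate its spliced form. ERN1, the gene of IRE1, was at 1.91 and 3.91 FPKM in DMSO and 5.30 after 6 h, with log2 differences of 1.42 and 0.84 against the baselines, and was not called. ATF6, the sensor of the remaining branch, was at 8.29 and 8.03 FPKM in DMSO and 7.05 after 6 h, below both. Among 22 genes of ER-associated degradation, 1 (4.55%) was called, close to the 4.02% of all genes. It was HERPUD1, a membrane protein of the degradation complex, at 14.3 and 33.2 FPKM in DMSO, 50.7 and 79.7 after 2 h, 248 after 6 h and 350.0 after 12 h. Its list had a median log2 difference of 0.02 relative to the first DMSO library.

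The ER stress element, searched on both strands as CCAAT and CCACG with 9 free bases between them, is the site through which ATF6 and XBP1 act, and the stretches before HSPA5 and XBP1 are shown because both genes were called and both hold it. It was in the promoters of 7 of 22 ER chaperones with an entry, against 0.0916% of all genes with a promoter. The 6 others with a match, HSP90B1, CALR, CANX, PDIA6, ERO1LB and CRELD2, were not called at 6 h. Among all genes called higher, the element was in HSPA5, XBP1 and FICD. The stretch of HSPA5 (chr9:125241344-125241443, reverse strand) has the match 66 to 48 bases before the start, and that of XBP1 (chr22:28800598-28800669, reverse strand) 52 to 34 bases before it, in capitals. The XBP1 stretch ends 29 bases before the RefSeq start, where exons of other annotated transcripts begin.
HSPA5: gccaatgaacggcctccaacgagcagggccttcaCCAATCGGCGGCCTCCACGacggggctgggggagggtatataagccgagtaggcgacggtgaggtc
XBP1: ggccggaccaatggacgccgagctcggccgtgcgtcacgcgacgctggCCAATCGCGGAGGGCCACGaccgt

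Genes downstream of PERK, ATF4 and CHOP were higher as a list, though the size of the difference depended on the vehicle library. Of 23 ATF4-CHOP stress genes, 7 (30.4%) were called higher and 0 lower, against 4.02% of all genes called higher, and 15 of 23 lay above both DMSO libraries, against 31.6% of all genes. The median log2 difference was 1.39 relative to the first DMSO library, 0.69 relative to the mean column and 0.50 relative to the recovered library. CHAC1, a glutathione-degrading enzyme and a marker of ATF4 activity (chr15:40952962-40956519, forward strand), stood at 0.738 and 2.08 FPKM in DMSO, 15.5 and 14.2 after 2 h, 31.2 after 6 h and 12.4 after 12 h. The 6 h level was more than 2-fold above every other library, with a log2 difference of 5.22 relative to the first DMSO library. DDIT3, which encodes CHOP, was at 13.9 and 46.3 FPKM in DMSO, 99.1 and 188 after 2 h, 203 after 6 h and 124 after 12 h. Here too 6 h was the highest library, and the recovered 2 h library came closest to it.

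PPP1R15A, the stress-induced subunit that reverses PERK's phosphorylation of eIF2α, was at 35.7 and 139 FPKM in DMSO, 458 after 6 h and 471 after 12 h. TRIB3, a pseudokinase that restrains ATF4, was at 12.9 and 11.1 FPKM in DMSO, 13.8 and 13.5 after 2 h, 55.5 after 6 h and 82.4 after 12 h, and so was near its DMSO level at 2 h. SESN2, a stress-induced inhibitor of mTORC1, was at 1.89 and 2.94 FPKM in DMSO and 27.3 after 6 h. The other called members were the transcription factor BHLHA15 and the peptide hormone gene ADM2, with log2 differences of 2.70 and 2.13. ADM2 was low throughout, at 0.332 and 0.825 FPKM in DMSO and 1.79 after 6 h. ATF4 itself, which is regulated largely through translation, was at 153 and 202 FPKM in DMSO and 343 after 6 h, with log2 differences of 1.16 and 0.95, and just missed the call.

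Several genes of this response could not be separated from the spread between the vehicle libraries. ATF3, an ATF4 target and early stress factor, was at 1.06 FPKM in the first DMSO library and 99.4 in the recovered one, with 57.0 after 6 h between them. DDIT4, an mTORC1 inhibitor, was at 21.2 and 49.6 FPKM in DMSO and 55.6 after 6 h. CEBPB, a transcription factor, was at 12.2 and 28.0 in DMSO and 21.4 after 6 h. WIPI1, an autophagy protein, was at 3.31 and 9.62 FPKM in DMSO and 3.52 after 6 h, and TSPYL2, a chromatin protein, at 6.03 and 29.6 in DMSO and 29.8 after 6 h. For ATF3, CEBPB and WIPI1 the 6 h level lay between the DMSO libraries, and for TSPYL2 and DDIT4 it lay above both, and above the recovered library by less than 2-fold. The called genes HSPA5 and XBP1 were also less than 2-fold above the recovered library, with log2 differences of 0.92 and 0.91. So were other called genes given below, among them MAFF, TRIB1, BBC3, KLF4, KLF5, VEGFA and AMOTL2.

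**Figure D2:**
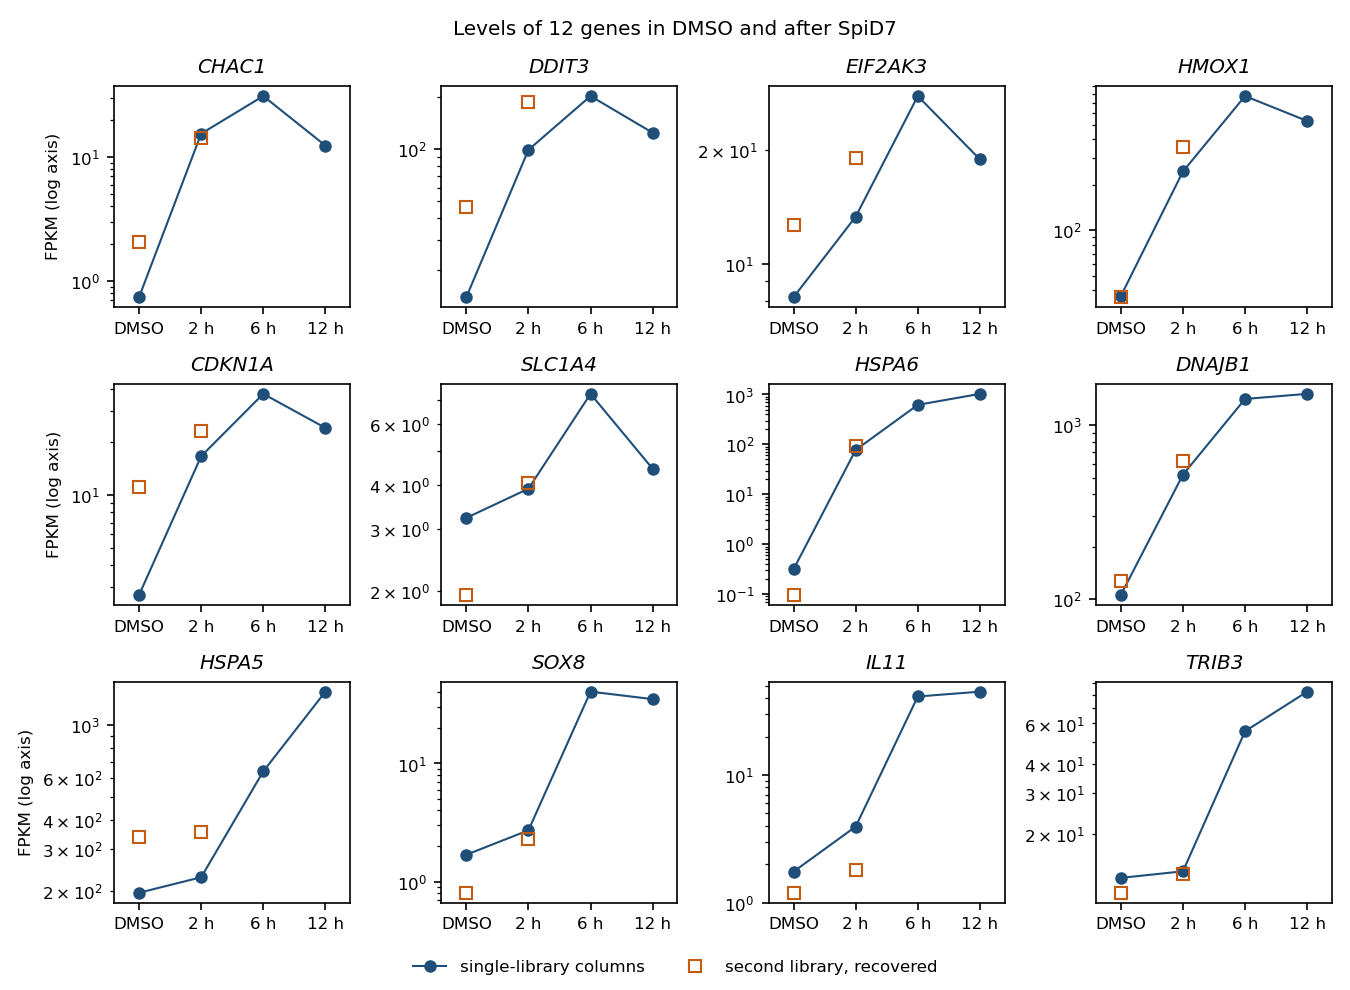
Each panel gives the FPKM of 1 gene on a log axis in DMSO and after 2, 6 and 12 h of SpiD7. Filled circles are the single-library columns and open squares the second DMSO and 2 h libraries recovered from the authors' means. CHAC1, DDIT3, EIF2AK3, HMOX1, CDKN1A and SLC1A4 are highest at 6 h, while HSPA6, HSPA5 and TRIB3 continue upward to 12 h.

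Of 25 NRF2 and glutathione-thioredoxin genes, 3 (12.0%) were called higher at 6 h and 0 lower, against 4.02% of all genes called higher, and the list's median log2 difference was 0.19 relative to the first DMSO library and 0.06 relative to the mean column. HMOX1, haem oxygenase 1 (chr22:35380361-35394214, forward strand), was at 36.7 and 36.1 FPKM in DMSO, 245 and 354 after 2 h, 773 after 6 h and 529 after 12 h. The DMSO libraries were close together for this gene, and 6 h was the highest library. SRXN1, which restores oxidized peroxiredoxins, was at 60.1 and 40.3 FPKM in DMSO and 149.5 after 6 h, and OSGIN1, an oxidative stress-induced growth inhibitor, at 13.2 and 11.7 in DMSO and 37.8 after 6 h. NQO1, a classical NRF2 target, was at 266 and 206 FPKM in DMSO and 257 after 6 h, between both. GCLM, the modifier subunit of glutathione synthesis, was at 21.1 and 10.5 FPKM in DMSO and 36.5 after 6 h, with a log2 difference of 0.79 from the first library. Of 7 metallothionein and zinc response genes kept, 1 (14.3%) was called higher, against 4.02% of all genes. It was the metal-sensing factor MTF1, at 3.28 and 4.13 FPKM in DMSO and 8.38 after 6 h. The median log2 difference of the 7 was -0.02 relative to the first DMSO library, 0.31 relative to the mean column and 0.75 relative to the recovered library.

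In early response genes the vehicle libraries were far apart, the recovered library exceeding the first by a median of 3.06 on the log2 scale for the AP-1 list and 2.79 for the NF-κB list, beside -0.06 over all genes. Of 30 AP-1 and immediate-early genes, 4 (13.3%) were called higher, against 4.02% of all genes. The median log2 difference was 1.94 relative to the first DMSO library but -0.21 relative to the mean column and -1.09 relative to the recovered library. The called members were ARC, TRIB1, MAFF and IER5. ARC, a cytoskeletal immediate-early gene, was at 0.925 and 53.2 FPKM in DMSO, 22.7 and 44.8 after 2 h, 141 after 6 h and 94.9 after 12 h. IER5, a small immediate-early protein that acts on HSF1, had closer DMSO libraries, at 9.98 and 13.2 FPKM, and stood at 87.1 after 6 h. For MAFF, a small MAF partner of NRF2, the values were 6.64, 66.2 and 86.7 FPKM, and for the pseudokinase TRIB1 they were 18.1, 203 and 238. Of 13 KLF transcription factors, 3 (23.1%) were called, KLF11, KLF4 and KLF5, against 4.02% of all genes. The KLF median log2 difference was 0.65 relative to the first DMSO library, 0.12 relative to the mean column and -0.16 relative to the recovered library. Against the recovered library, 1 of the 13 was more than 2-fold higher and 2 were more than 2-fold lower. KLF11 had 1.71 and 0.826 FPKM in DMSO, 2.63 and 1.60 after 2 h and 15.6 after 6 h. Among NF-κB regulators and targets 0 of 25 were called higher and 0 lower, against 4.02% and 0.850% of all genes. Their median was 0.54 relative to the first DMSO library and -2.84 relative to the recovered one. The chemokine gene IL8 shows the range, at 0.421 and 190.5 FPKM in the DMSO libraries and 2.22 after 6 h. Interferon response genes were low at 6 h, with 17 of 20 below both DMSO libraries, against 29.2% of all genes. Of the 20, 1 was called lower, against 0.850% of all genes. It was OAS2, at 0.449 and 4.20 FPKM in DMSO and 0.174 after 6 h. The interferon list's median log2 difference ranged from -0.34 relative to the first DMSO library to -1.50 relative to the recovered one.

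**Figure D3:**
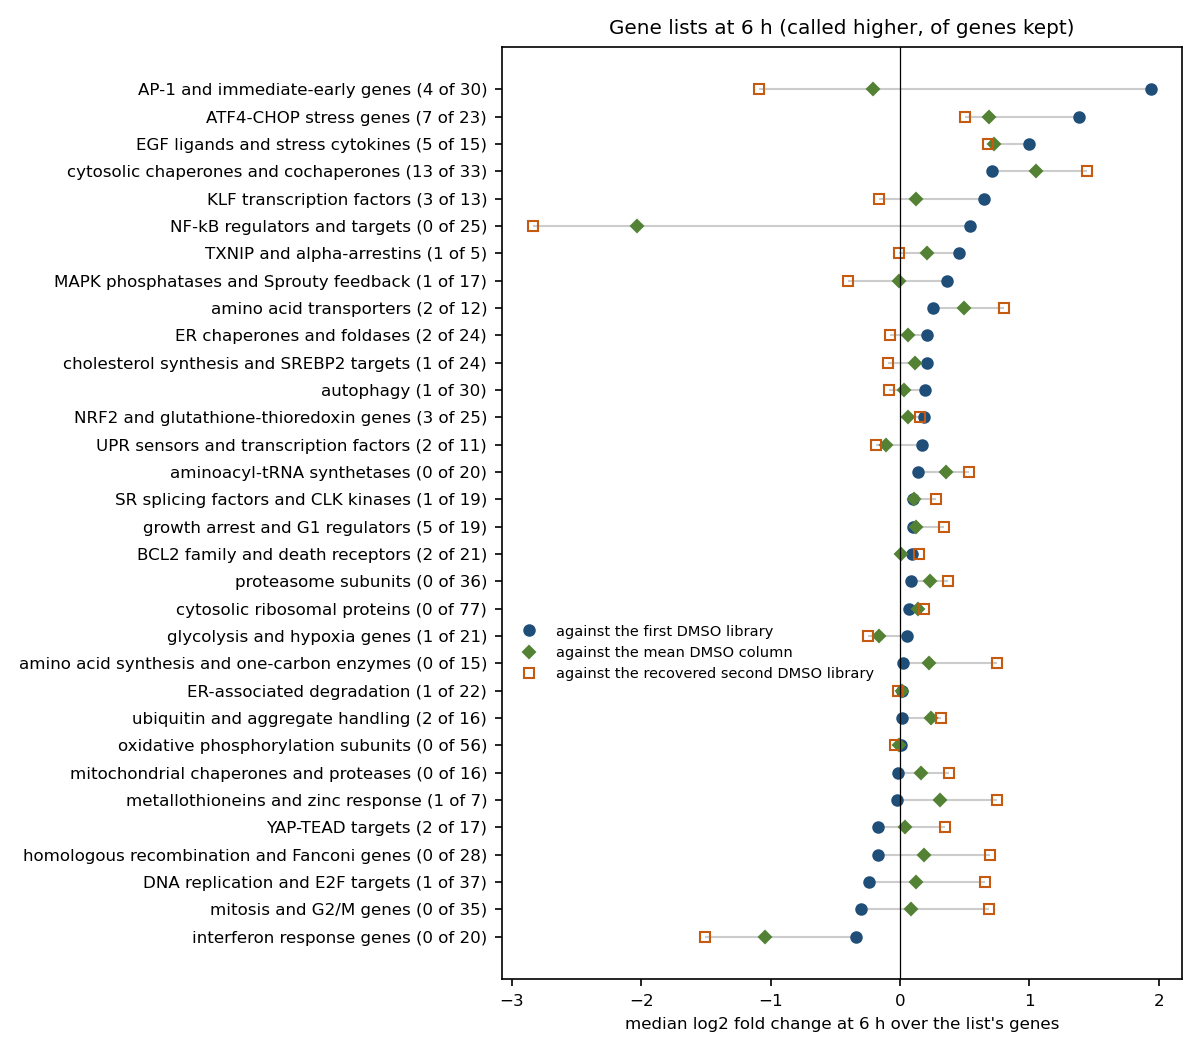
Each row is a list of genes, with the number called higher at 6 h of the number kept in brackets. The x axis gives the median log2(FPKM + 0.1) difference at 6 h against the first DMSO library (circles), the mean DMSO column (diamonds) and the recovered second DMSO library (squares). Cytosolic chaperones, ATF4-CHOP genes, secreted factors and amino acid transporters lie right of 0 against all 3, while AP-1, NF-κB, mitosis and replication lists lie on both sides of 0.

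Secreted factors and growth regulators gave further called genes. Of 15 EGF ligands and stress cytokines, 5 (33.3%) were called higher, against 4.02% of all genes. The median log2 difference was 1.00 relative to the first DMSO library and 0.72 relative to the mean column. IL11, a cytokine of the IL-6 family (chr19:55364389-55370463, reverse strand), was at 1.75 and 1.19 FPKM in DMSO, 3.94 and 1.81 after 2 h, 41.4 after 6 h and 45.1 after 12 h. The 2 h libraries lay above both DMSO libraries, and both later times lay more than 10-fold above the first 2 h library. Its upstream stretch is shown as an example of an AP-1 site (TGANTCA on both strands), which was in 12.5% of promoters of genes called higher, in 7.06% of those of the genes kept and in 9.37% of all genes with a promoter. The match, in capitals, lies 96 to 90 bases before the start (chr19:55370464-55370563, reverse strand).
IL11: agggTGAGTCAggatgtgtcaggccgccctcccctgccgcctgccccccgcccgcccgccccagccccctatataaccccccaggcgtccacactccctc

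HBEGF, an EGF receptor ligand, was at 17.2 and 28.9 FPKM in DMSO and 85.2 after 6 h, and the angiogenic factor VEGFA at 5.01 and 18.1 in DMSO and 30.4 after 6 h. IL1RL1, the IL-33 receptor, and the chemokine CCL26 reached 5.00 and 10.9 FPKM after 6 h and were higher still at 12 h, at 13.6 and 84.4. Of 19 growth arrest and G1 regulators, 5 (26.3%) were called higher, against 4.02% of all genes. CDKN1A, the CDK inhibitor p21, was at 2.71 and 11.1 FPKM in DMSO, 16.7 and 23.1 after 2 h, 37.7 after 6 h and 24.1 after 12 h, with 6 h the highest. The stress sensors GADD45A, GADD45B and GADD45G had log2 differences against the first DMSO library of 2.15, 2.22 and 4.42, and the phosphatase gene PPM1D one of 1.43. The GADD45G difference depended on the pseudocount and was 2.49 with a pseudocount of 1. In the BCL2 and death receptor list 2 of 21 (9.52%) were called, against 4.02% of all genes. They were the BH3-only genes BBC3 (0.855 and 5.38 FPKM in DMSO, 6.86 after 6 h) and BCL2L11 (7.20 and 7.56 in DMSO, 24.2 after 6 h). Outside the lists, the transcription factor SOX8 was at 1.69 and 0.803 FPKM in DMSO, 2.72 and 2.29 after 2 h, 40.6 after 6 h and 35.1 after 12 h. RRAD, a small GTPase-like protein, was at 0.886 and 6.79 FPKM in DMSO, 72.6 after 6 h and 89.3 after 12 h.

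The remaining lists held few called genes. One called member each was found among SR splicing factors and CLK kinases (CLK1, 22.7 and 25.7 FPKM in DMSO, 132 after 6 h), autophagy genes (MAP1LC3B, log2 difference 2.17), alpha-arrestins (ARRDC3, 2.41), cholesterol synthesis genes (HMGCS1, 2.09), glycolysis and hypoxia genes (ADM, 1.76) and MAPK phosphatases (DUSP8, 3.68). These made up 5.26%, 3.33%, 20.0%, 4.17%, 4.76% and 5.88% of the genes kept in their lists, in that order, against 4.02% of all genes. YAP-TEAD targets had 2 (11.8%), AMOTL2 and LATS2, at 1.58 and 1.59. None of the 56 oxidative phosphorylation subunits, 77 cytosolic ribosomal proteins and 16 mitochondrial chaperones and proteases was called in either direction. Of all genes 4.02% were called higher and 0.850% lower.

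Few genes of appreciable level were lower at 6 h. Of the 49 protein-coding genes called lower, 9 had at least 5 FPKM in the first DMSO library. The furthest below it were TIGD1, at 233 FPKM in the first DMSO library, 3.68 in the recovered one and 4.11 after 6 h, and ANKRD54, at 247, 9.94 and 12.9. Both were high in the first DMSO library alone, and their 6 h level was close to the recovered library. For the others both DMSO libraries lay above 6 h. TNS3, a focal adhesion protein, was at 46.1 and 82.7 FPKM in DMSO, 41.1 and 62.3 after 2 h, 22.2 after 6 h and 21.4 after 12 h. EFNA5, an ephrin ligand, differed by -1.09 and -1.30 from the DMSO libraries on the log2 scale, and MKL2, an SRF coactivator, was at 8.16 and 7.07 FPKM in DMSO and 3.68 after 6 h. DMC1, S100A1, TSHZ1 and METTL12 had log2 differences from the first DMSO library of -1.91, -1.28, -1.01 and -2.97. Among all genes called lower, 37 (32.7%) were at least 0.5 lower on the log2 scale at 6 h than at both other times. The genes called lower were picked by their low 6 h level, so this share favours 6 h by construction. Of the 12 largest falls among called genes with at least 5 FPKM, small RNAs left out, 10 were listed at 0 at 6 h and 2 were protein-coding.

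Which programmes stood at their height at 6 h was asked next. A gene was counted at its height where its 6 h level exceeded both the 12 h level and the higher of the 2 h columns by at least 0.5 on the log2 scale. Among all genes 129 (0.971%) met this rule, and 88 (0.662%) met it and were called higher. Of these, 45 were protein-coding, 0.383% of the protein-coding genes kept. Among the 376 protein-coding genes called higher, 45 (12.0%) were at their height at 6 h, 41 (10.9%) were higher by 0.5 or more at 12 h than at 6 h, and 2 (0.532%) at 2 h than at 6 h. The other 288 (76.6%) met none of these. The 376 genes were picked by their 6 h level, so genes high at 2 h or 12 h alone are left out. This split therefore favours 6 h by construction. Since 2 h, 6 h and 12 h were all set against the same first DMSO library, the times are compared below by their own levels.

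The genes at their height at 6 h came from several groups, with at most 1 in any of the functional lists. By level at 6 h the leading ones were HMOX1, ARC, NAB2, CDKN1A, CHAC1, NRARP and EIF2AK3. NAB2, a corepressor of EGR factors, was at 10.8 and 17.1 FPKM in DMSO, 18.5 and 26.3 after 2 h, 40.2 after 6 h and 24.4 after 12 h. The widest margins at a level of at least 5 FPKM were those of HIST1H3J, 1.02 over 2 h and 1.12 over 12 h on the log2 scale, and CHAC1, 1.01 and 1.32. HIST1H3J and HIST1H2BN, replication-dependent histone genes, were at 5.70 and 5.12 FPKM after 6 h and at 2.57 and 2.57 after 12 h, and in DMSO at 0.728 and 1.08 in the first library. The epithelial transcription factors GRHL1 and OVOL1 were at 8.61 and 9.04 FPKM after 6 h, against 1.29 and 2.11 in the first DMSO library and 4.45 and 4.73 after 12 h.

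CBFA2T3, a transcriptional corepressor, was at 0.228 and 0.277 FPKM in DMSO, 0.275 and 0.269 after 2 h, 6.23 after 6 h and 3.88 after 12 h, so it was at its DMSO level at 2 h. EFNA1, an ephrin ligand, was at 3.38 and 8.22 FPKM in DMSO, 23.7 after 6 h and 13.9 after 12 h. RGS16, a regulator of G-protein signalling, was at 0.727 and 0.812 in DMSO, 6.58 after 6 h and 3.25 after 12 h. Others among the 15 with the widest margins were the transcription factors ZIC5, DLX2, ZNF57 and ZNF77, the nucleotidyltransferase FAM46C and the amino acid transporter SLC1A4. At the edge of the rule, SNAI2 was just inside with a 12 h margin of 0.50, and DDIT3 and FAM43A were just outside with a 2 h margin of 0.50 and a 12 h margin of 0.49. The ER stress element was in 1 of 41 promoters of called genes at their height at 6 h (FICD), and the heat shock element in 0 of 41.

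**Figure D4:**
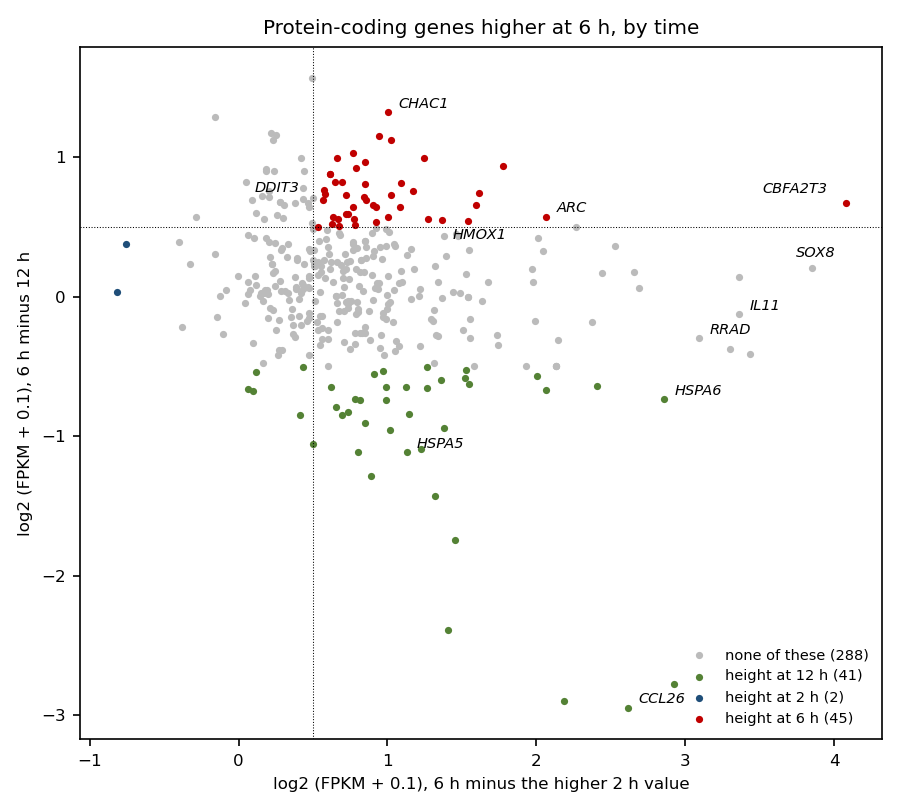
Each point is a protein-coding gene called higher at 6 h. The x axis gives the log2 difference between 6 h and the higher 2 h value, the y axis that between 6 h and 12 h, and dotted lines mark the margin of 0.5. The 45 genes at their height at 6 h fill the upper right, HSPA6, HSPA5 and CCL26 lie below 0 on the y axis, and DDIT3 lies at the left edge of the margin.

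The amino acid supply lists held large shares of genes whose 6 h level exceeded the 2 h and 12 h columns. DMSO does not enter this count, so that CBS, a cysteine synthesis enzyme, is included at 5.24 FPKM although the DMSO libraries were higher (5.82 and 6.69). Of 12 amino acid transporters, 10 were higher at 6 h than in these columns by any margin, as were 10 of 15 amino acid synthesis and one-carbon enzymes and 10 of 20 aminoacyl-tRNA synthetases, against 19.2% of all genes. Among the other lists, metallothionein and zinc response genes had a like share, 4 of 7. Next came KLF factors (6 of 13), MAPK phosphatases with Sprouty genes (7 of 17) and replication genes (15 of 37), not far below the synthetases. Under median-ratio or upper-quartile scaling the transporters in this count were 8 of 12. The differences were small, and 2 of the 47 entries of the amino acid supply lists were called higher, near the share of all genes (4.02%). The median log2 difference of the transporters was 0.26 relative to the first DMSO library and 0.80 relative to the recovered one, of the synthetases 0.14 and 0.53, and of the synthesis enzymes 0.02 and 0.75. The 6 h level exceeded the 12 h level by a median of 0.25, 0.28 and 0.38, beside 0.06 over all genes. SLC3A2, the heavy chain shared by amino acid exchangers, was at 205 and 112 FPKM in DMSO, 287 and 222 after 2 h, 557 after 6 h and 672 after 12 h. SLC1A4, a neutral amino acid transporter, was at 3.23 and 1.95 in DMSO, 3.91 and 4.05 after 2 h, 7.29 after 6 h and 4.46 after 12 h. Of this pair SLC1A4 was highest at 6 h and SLC3A2 at 12 h.

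SLC38A2, a sodium-coupled transporter of small neutral amino acids, was at 83.1 and 104 FPKM in DMSO, 179.5 after 6 h and 127 after 12 h. ASNS, asparagine synthetase, was at 29.1 and 13.4 FPKM in DMSO, 34.2 and 26.1 after 2 h, 49.7 after 6 h and 38.6 after 12 h. PSAT1, of serine synthesis, was at 51.0 and 22.9 in DMSO and 77.7 after 6 h. These and the alanine transaminase GPT2 (7.04, 6.67 and 14.0 FPKM) lay above both DMSO libraries without being called. Among the tRNA synthetases YARS, CARS, WARS and NARS had the largest log2 differences from the first DMSO library, 0.54, 0.46, 0.33 and 0.32, and VARS, QARS and FARSA the lowest, -0.26, -0.19 and -0.17. The enzymes at the lower end of the synthesis list were TYMS, MTHFD1 and SHMT1, at -0.24, -0.21 and -0.16.

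Proliferation genes were lower at 12 h than at 6 h, and their place relative to the vehicle depended on the vehicle library. All 35 mitosis and G2/M genes, all 37 DNA replication and E2F targets and all 28 homologous recombination and Fanconi genes had more transcript at 6 h than at 12 h, against 56.7% of all genes. The medians of 6 h minus 12 h were 1.18, 0.49 and 0.73 on the log2 scale. At 6 h 0 of the mitosis genes were called higher and 0 lower, against 4.02% and 0.850% of all genes. Their median log2 difference was -0.30 relative to the first DMSO library, 0.09 relative to the mean column and 0.69 relative to the recovered library. Its direction thus depended on the vehicle library. For the replication and recombination lists it was -0.24 and -0.17 relative to the first DMSO library and 0.66 and 0.69 relative to the recovered one. At 12 h the mitosis, replication and recombination medians were -1.42, -0.82 and -0.93 relative to the first DMSO library. The recovered DMSO library itself differed from the first by medians of -0.99, -0.83 and -0.82. TOP2A, topoisomerase IIα, was at 287 and 128 FPKM in DMSO, 290.0 and 110.3 after 2 h, 161 after 6 h and 46.5 after 12 h. NEK2, a centrosomal kinase and the mitosis gene furthest up, was at 30.7 and 19.9 in DMSO, 36.6 after 6 h and 15.6 after 12 h. Both were lowest at 12 h among the single-library columns. The order of 2 h and 6 h differed between the 2 h libraries, as 1 of 35 mitosis genes was higher at 6 h than in the 12 h and both 2 h columns but 33 of 35 when the recovered 2 h library was used alone. CCNE1, the G1/S cyclin E1, was the one replication gene called higher, at 9.31 and 7.94 FPKM in DMSO, 22.9 after 6 h and 22.0 after 12 h. CDC25A, a phosphatase that activates CDKs at G1/S, was among the genes at their height at 6 h, with 8.69 and 4.63 FPKM in DMSO, 17.7 after 6 h and 12.0 after 12 h, and is named after its values were seen.

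**Figure D5:**
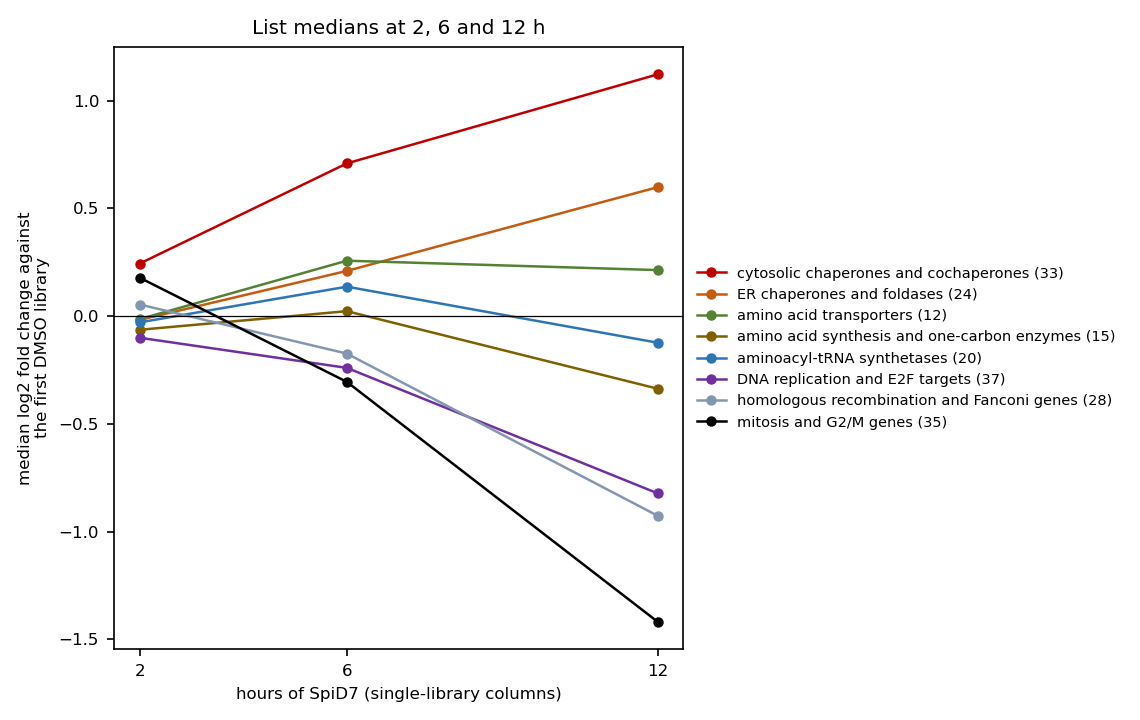
Each line joins the median log2(FPKM + 0.1) difference of a list's genes from the first DMSO library, read in the single-library columns of 2, 6 and 12 h, with the number of genes kept in brackets. Chaperone lists are highest at 12 h, the 3 amino acid supply lists at 6 h, and the mitosis list runs from 0.18 at 2 h through -0.30 at 6 h to -1.42 at 12 h. The recovered DMSO library, not drawn, differed from the first by a median of -0.99 for the mitosis list.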

How the data were processed

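Per the labels and the paper's methods, RNA was purified from Trizol lysates and libraries were made with the TruSeq V2 kit. The authors used Trim Galore for trimming and TopHat2 2.0.8 for alignment, and obtained FPKM from Cufflinks 2.1.1 and Cuffdiff 2.1.1. The methods name a mouse build, whereas the deposited loci are human (hg38). The authors deposited an FPKM value for each side of 4 comparisons, each scaled separately, and the log2 fold change, p-value and q-value of each. Those comparison columns were not used. Every value column could be matched to a sample or a group (0 columns unmatched).

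The 6 h and 12 h values were divided by 0.972 and 0.994, which equalizes the first DMSO library between comparisons. The DMSO and 2 h columns of comparison 2 were read as means because, of 18195 rows expressed in the first DMSO library, 0 were at 0 there and 608 at 6 h. The share of the first library in the mean was 0.526 for DMSO (810 rows) and 0.509 for 2 h (958 rows). The recovered library is the mean divided by this share, minus the first library, which assumes equal weights, and remainders smaller than 0.2% of the mean were set to 0. The mean columns are printed as the authors' mean, with no error.

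The 33085 rows were summed to 29982 symbols, and 13287 with a mean of at least 1 FPKM over the 6 libraries were kept. Of these, 1086 had values identical to another symbol, so that overlapping genes cannot be told apart. Calls and times used a pseudocount of 0.1, a fold of 2 and a margin of 0.5. Biotypes and promoters came from RefSeq and gene positions from GENCODE release 29. The software was Python 3.11.15, numpy 2.4.6, pandas 2.3.3 and matplotlib 3.10.9, and the scripts were tested on simulated data.

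Named genes were the 12 furthest up and down with at least 5 FPKM, the 15 with the widest margins at 6 h, the 4 highest, 3 lowest and all called members of each list, and genes of the study's RNA-Seq text. The members, lists and rules were chosen with earlier results of these data known. Results for some genes are not reported here. The restriction to protein-coding genes was added after the data were seen. Alternatives were other pseudocounts, filters, scalings, folds, margins and baselines. Of the other motifs searched, antioxidant, metal, sterol and C/EBP-ATF elements were in 6.87%, 39.7%, 2.09% and 0.896% of promoters of genes called higher, against 4.02%, 45.9%, 1.40% and 0.658% of the genes kept.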

Additional observations from a re-analysis of the deposited data

How the results depend on the processing

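No paired analysis was possible because SpiD7 6 h has 1 library without a replicate number, so no replicate block could be fitted. The number of genes called higher (534) became 249 with a mean FPKM of at least 5, 1554 without a filter, 1054 with a fold of 1.5 and 170 with a fold of 4, and the number called lower (113) became 46, 336, 389 and 39. With a pseudocount of 1 there were 52 lower. With the mean DMSO column alone there were 548 lower, and leaving out 1 DMSO library gave 834 to 1031 higher and 132 to 1032 lower. Called genes were higher in 82.5% of cases in the reported analysis, 86.3% with the first DMSO library and 54.1% with the mean column as the one baseline, and against the recovered library 1031 were higher and 1032 lower. Called genes at their height at 6 h (88) became 174 and 25 with margins of 0.25 and 1, 42 with a mean FPKM of at least 5 and 96 to 97 without 1 DMSO library. Protein-coding genes alone, an alternative chosen after seeing the data, gave 376 higher, 49 lower and 45 at their height, of which 34 and 32 met the rule under median-ratio and upper-quartile scaling.

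Without DMSO replicate 1, list medians became 1.44 for cytosolic chaperones, -0.079 for ER chaperones, 0.50 for ATF4-CHOP genes, 0.80 for amino acid transporters, 0.53 for tRNA synthetases, -2.84 for NF-κB genes, -1.09 for AP-1 genes and 0.69 for mitosis genes. With the mean DMSO column alone, they became 0.69 for ATF4-CHOP genes, -2.04 for NF-κB, -0.21 for AP-1 and 0.085 for mitosis genes. Among named genes, the sign turned without DMSO replicate 1 for ATF3 (-0.80), CEBPB (-0.38), WIPI1 (-1.43), TIGD1 (0.15) and ANKRD54 (0.37), and with the mean column for WIPI1 (-0.86). The other 47 values for counts and lists and 121 of 192 for named genes moved by less than 1.5 times or less than the spread between the DMSO libraries. Median-ratio and upper-quartile scaling shifted the median of all genes to -0.07 and -0.03, and the amino acid transporters higher at 6 h than at 2 h and 12 h from 10 to 8 of 12. The cause of these shifts was not tested.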

Other observations

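Zinc finger genes named ZNF, a family of DNA-binding repressors in large part, were examined after several had been seen among the genes at their height at 6 h, so the following is a description only. Of 309 such protein-coding genes kept, 29 were called higher and 0 lower, against 3.20% of protein-coding genes called higher, and 172 of 309 lay above both DMSO libraries, against 31.6% of all genes. Their median log2 difference was 0.21 relative to the first DMSO library, 0.27 relative to the mean column and 0.40 relative to the recovered one. It was 0.27 in the first 2 h library and 0.34 at 12 h, so the group was not at its height at 6 h. Most of these genes have low FPKM, and the part played by depth was not tested.

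FICD, an ER enzyme that modifies BiP, was at 1.02 and 2.05 FPKM in DMSO, 1.94 and 2.83 after 2 h, 4.17 after 6 h and 2.90 after 12 h. Its promoter holds the ER stress element that HSPA5 and XBP1 share, but HSPA5 was highest at 12 h and FICD at 6 h. SERPINH1, a collagen chaperone of the ER whose promoter holds the heat shock element, was at 183 and 182 FPKM in DMSO, 390.1 after 6 h and 729 after 12 h. Both genes were named after their values were seen.

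Of 77 cytosolic ribosomal protein genes, 76 were above the higher 2 h column at 6 h, against 34.0% of all genes. Above both DMSO libraries were 52 of the 77, against 31.6% of all genes. The median log2 difference from the first DMSO library was 0.07 and that from the first 2 h library 0.15, so the differences were small. The genes SHPRH and FBXO30, both at their height at 6 h, had identical values (26.7 FPKM at 6 h) and cannot be told apart in these data.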
